A study of Mus musculus with 2 samples.

Results

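The genes described are the 84 rows, of 17128 gene symbols in the deposited table, whose symbols name a protein of the cytosolic ribosome. They were taken by name alone: Rpl or Rps followed by a number and at most a short suffix, with Rplp0 to Rplp2 and Rpsa, and without rows marked as pseudogenes by -ps. They comprised 52 genes of the large subunit and 32 of the small subunit. Of these, 76 were the canonical genes and 8 were paralogs or retrocopies of a canonical gene, 3 of which are annotated as pseudogenes. Expression was given as FPKM, fragments per kilobase of transcript scaled to library size.

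The cytosolic ribosome reads mRNA on its small subunit and joins amino acids on its large subunit, and each particle is built from ribosomal RNA with a single copy of nearly every ribosomal protein. The mRNAs of ribosomal proteins are short, abundant and spliced, and most begin with a terminal oligopyrimidine tract (TOP), a run of C and T at the first transcribed base through which the kinase mTORC1 and the binding protein LARP1 control their translation and stability. Making ribosomes is a large part of the growth cost of a cell.

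RNA had been sequenced from 2 cultures of primary liver cells prepared as hepatic stellate cells, the pericytes that become matrix-producing myofibroblasts. Both came from mice of genotype Adar1f/f/Cre-ER, with floxed alleles of the gene for the RNA-editing enzyme ADAR1 and a tamoxifen-activated recombinase. Both were grown in serum-containing medium and activated in culture for 4 days. One received vehicle and the other 100 nM 4-hydroxytamoxifen (4-OHT), given to ablate Adar1. The sources used here do not give the promoter driving Cre-ER or the number of mice per culture. Cells without floxed alleles that were given 4-OHT were not analysed here, so the loss of the gene and the drug itself cannot be told apart. There was 1 library per group, so no difference has a replicate check and no test was made. Adar was not analysed here, so its level cannot serve as a check of the labels.

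FPKM summed to 492899 with vehicle and 553155 with 4-OHT. As recovered from the low values, 1 FPKM over 1 kilobase was worth 38.5 fragments in the vehicle library and 30.6 in the other. In what follows, paired levels give vehicle first and 4-OHT second, and the number after them in brackets is the log2 change. The median level of the 14 analysed stellate markers was 11.6 and 3.13 FPKM, and their sum 363 and 167 FPKM. The 14 macrophage markers summed to 6488 and 4641 FPKM, with medians of 315 and 256 FPKM, and 11 endothelial markers summed to 1485 and 1271 FPKM. None of the analysed markers of these 3 cell types was listed at 0. Of 16 stellate markers chosen, 14 were analysed. These ranged from 1.11 to 121 FPKM with vehicle and from 0.209 to 65.6 FPKM with 4-OHT. Among the low ones were Lrat, at 1.36 and 0.209 FPKM, and Cygb, at 1.17 and 0.288 FPKM. Markers of the labelled cell type were therefore detected, some only weakly, with markers of other liver cells at higher levels in both libraries. Which of these cells the ribosomal protein mRNAs came from was not tested.

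Ribosomal protein mRNAs were slightly lower in the 4-OHT library as a group, and a single gene passed 2-fold. A gene was tested when its higher library reached 1 FPKM, which 83 members did. Of these, 72 lay below 0, against 46.8% of all 13558 genes tested, where 0 means equal log2(FPKM + 1) in both libraries. Their median change was −0.23 in log2, 4-OHT minus vehicle, with quartiles of −0.39 and −0.12, beside a median of 0.03 and quartiles of −0.25 and 0.30 for all genes. Rps21 was the only member at least 2-fold lower, against 3.48% of all genes, and no member was at least 2-fold higher, against 5.78%. At 1.5-fold, 5 members were lower, against a background of 10.2%, and none was higher, against 11.7%. On the values as deposited, most members thus lay slightly below 0. The remaining member, the retrocopy Rpl6l, was at 0.560 and 0.468 FPKM. In bulk RNA, fewer cells of a type and less of this RNA per cell cannot be told apart.

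The summed level of all 84 genes was 22209 and 18901 FPKM. This was 4.51% of the summed FPKM of the vehicle library and 3.42% of that of the 4-OHT library. Over protein-coding rows alone the shares were 5.95% and 4.60%. Scaling both libraries to the same sum moved changes by −0.17, and by less for genes of a few FPKM because of the added 1. The median of all genes was then −0.11 and that of the members −0.40, with 80 members below 0 against 61.6% of all genes. On that scaling 16 members were at least 1.5-fold lower, against 15.1% of all genes. In the authors' deposited table no member had a q-value under 0.05, against 2.47% of all rows. The lowest q-value of a member in the authors' deposited table was 0.0759, for Rps21, and 82 of the 84 had a q-value of at least 0.8.

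**Figure D1:**
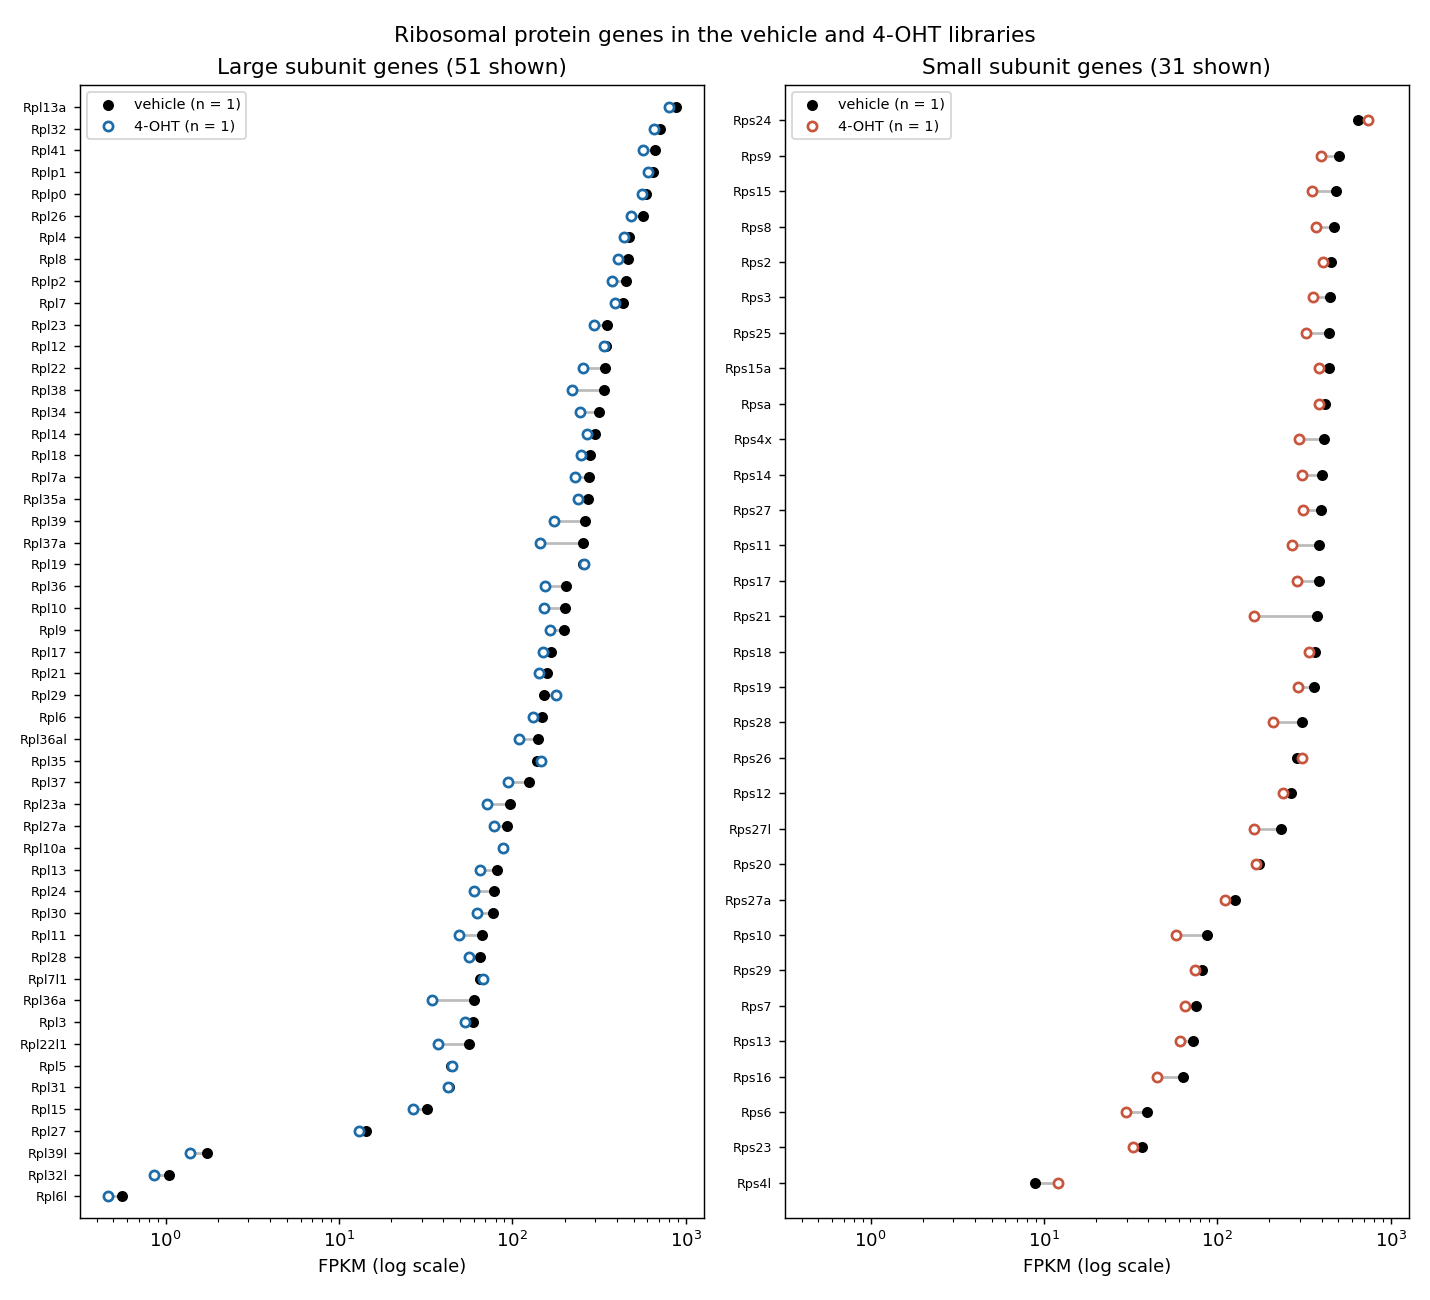
FPKM on a log axis of 51 large subunit genes (left) and 31 small subunit genes (right) in the vehicle library (filled) and the 4-OHT library (open), ordered by the vehicle level. Levels span from below 1 FPKM for retrocopies to 874 FPKM for Rpl13a, and the open points mostly lie slightly to the left of the filled ones, farthest for Rps21.

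The order of the members by level was nearly the same in both libraries, with a Spearman correlation of 0.98 across 81 protein-coding members, which describes these genes and not replicates. In the large subunit the highest levels were those of Rpl13a, a protein also known in human monocytes for silencing inflammatory mRNAs after interferon gamma, at 874 and 802 FPKM. Rpl32 followed at 711 and 660 FPKM, and Rpl41, a very small protein that bridges the subunits, at 668 and 569 FPKM. In the small subunit Rps24 was highest, at 649 and 740 FPKM, followed with vehicle by Rps9, at 507 and 397 FPKM, and Rps15, at 487 and 352 FPKM. At the other end, Rpl27 was at 14.3 and 13.0 FPKM, Rpl15 at 32.2 and 26.6 FPKM, and Rps23, a protein of the decoding site, at 36.8 and 32.7 FPKM. These proteins are needed in equal copy number, whereas the listed mRNA levels of canonical genes spread from 14.3 to 874 FPKM with vehicle. Listed levels of different genes also depend on sequence shared with other genes, described below, and on the transcript length used. The part of these in the spread was not tested.

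Most members with a promoter sequence held a pyrimidine run near an annotated start. Whether these runs are TOP tracts, which begin at the first transcribed base, was not tested. The RefSeq promoter table on GRCm38.p6, which holds 250 bases before to 50 after each start, matched 62 of the 84 members. A run of at least 8 pyrimidines that began between 20 bases before and 30 bases after an annotated start stood in 42 of the 62, or 67.7%, against 22.4% of 9140 other protein-coding genes tested and 22.3% of all 27025 genes in the table. The following 30-base windows are from the 3 members with the lowest changes among those shown, the kinase target Rps6, the most abundant member, the stall-site protein Rps10, the 2 canonical small subunit genes with the highest changes, and a paralog. Capitals mark the longest pyrimidine run.
Rps21 (chr2:180257367-180257396, plus strand): cgaggacccgCCCTCCTgcccaatagtgct
Rpl37a (chr1:72711268-72711297, plus strand): cgcatgcgcattgcgTCCCTTCCTCTTCgg
Rpl38 (chr11:114668568-114668597, plus strand): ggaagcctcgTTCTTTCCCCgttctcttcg
Rps10 (chr17:27635227-27635256, minus strand): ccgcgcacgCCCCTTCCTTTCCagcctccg
Rps6 (chr4:86857350-86857379, minus strand): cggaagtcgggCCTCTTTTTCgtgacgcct
Rpl13a (chr7:45128728-45128757, minus strand): accctgcgacaagaCCTCCTCCTTTCCCag
Rps24 (chr14:24490666-24490695, plus strand): gcgctggggTCCTTCCTTgcgcgttgatat
Rps26 (chr10:128626489-128626518, minus strand): gggcaagccgccggaTCCTCTTTCgagtct
Rpl22l1 (chr3:28805496-28805525, plus strand): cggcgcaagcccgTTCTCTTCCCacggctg
The run of Rps21 is 7 bases long and so falls short of the 8 counted above. The run of Rpl37a begins at base 24, counted from the annotated start, whereas the others shown begin within 4 bases of it. The 42 genes with a run of 8 or more had a median change of −0.24 and the 20 without had −0.28. The letters CCGGAA, the core bound by factors of the ETS family, stood on either strand in 54.8% of the members' promoters, against 32.5% of other protein-coding genes tested and 16.7% of all genes. The medians with and without CCGGAA were −0.24 and −0.25. The letters AAGATGG, the core bound by the factor YY1, stood on either strand in 10 of 62, or 16.1%, against 8.57% of other protein-coding genes tested and 7.28% of all genes. The letters TATAAA, the core of the TATA box, stood on either strand in 8 of 62, or 12.9%, against 8.60% of other protein-coding genes tested and 15.7% of all genes. The medians were −0.48 with TATAAA and −0.24 without. A promoter could hold more than 1 of these sets of letters.

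Rps21, the member with the lowest change, encodes a small subunit protein of the platform that contacts Rpsa (chromosome 2, 180257377 to 180258445, plus strand). It was at 375 and 162 FPKM, a log2 change of −1.21. The next lowest small subunit gene, Rps10, had a change of −0.57, so Rps21 stood apart from the other small subunit genes. A stretch around its start is shown because it holds 2 copies of CCGGAA, in capitals.
Rps21 promoter (chr2:180257229-180257408, plus strand): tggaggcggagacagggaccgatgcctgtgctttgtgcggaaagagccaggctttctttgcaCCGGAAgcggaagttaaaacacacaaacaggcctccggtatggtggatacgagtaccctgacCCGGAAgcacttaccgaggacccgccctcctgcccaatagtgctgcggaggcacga
With Rps21, 34 of the 62 members matched held this motif on either strand, with the median of −0.24 given above.

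Small subunit genes were lower by slightly more than large subunit genes. The median change was −0.32 over 32 small subunit genes and −0.20 over 51 large subunit genes, a difference of 0.12. The summed level was 9745 and 8074 FPKM for the small subunit, a ratio of 0.829, and 12464 and 10826 FPKM for the large subunit, a ratio of 0.869. The ratio of large to small subunit sums was 1.28 with vehicle and 1.34 with 4-OHT. Below 0 lay 28 of the 32 small and 44 of the 51 large subunit genes. The difference between the subunits was 0.06 when pseudogene rows were added to their parent genes, and 0.03 after the median of other genes of the same mRNA length was taken off.

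**Figure D2:**
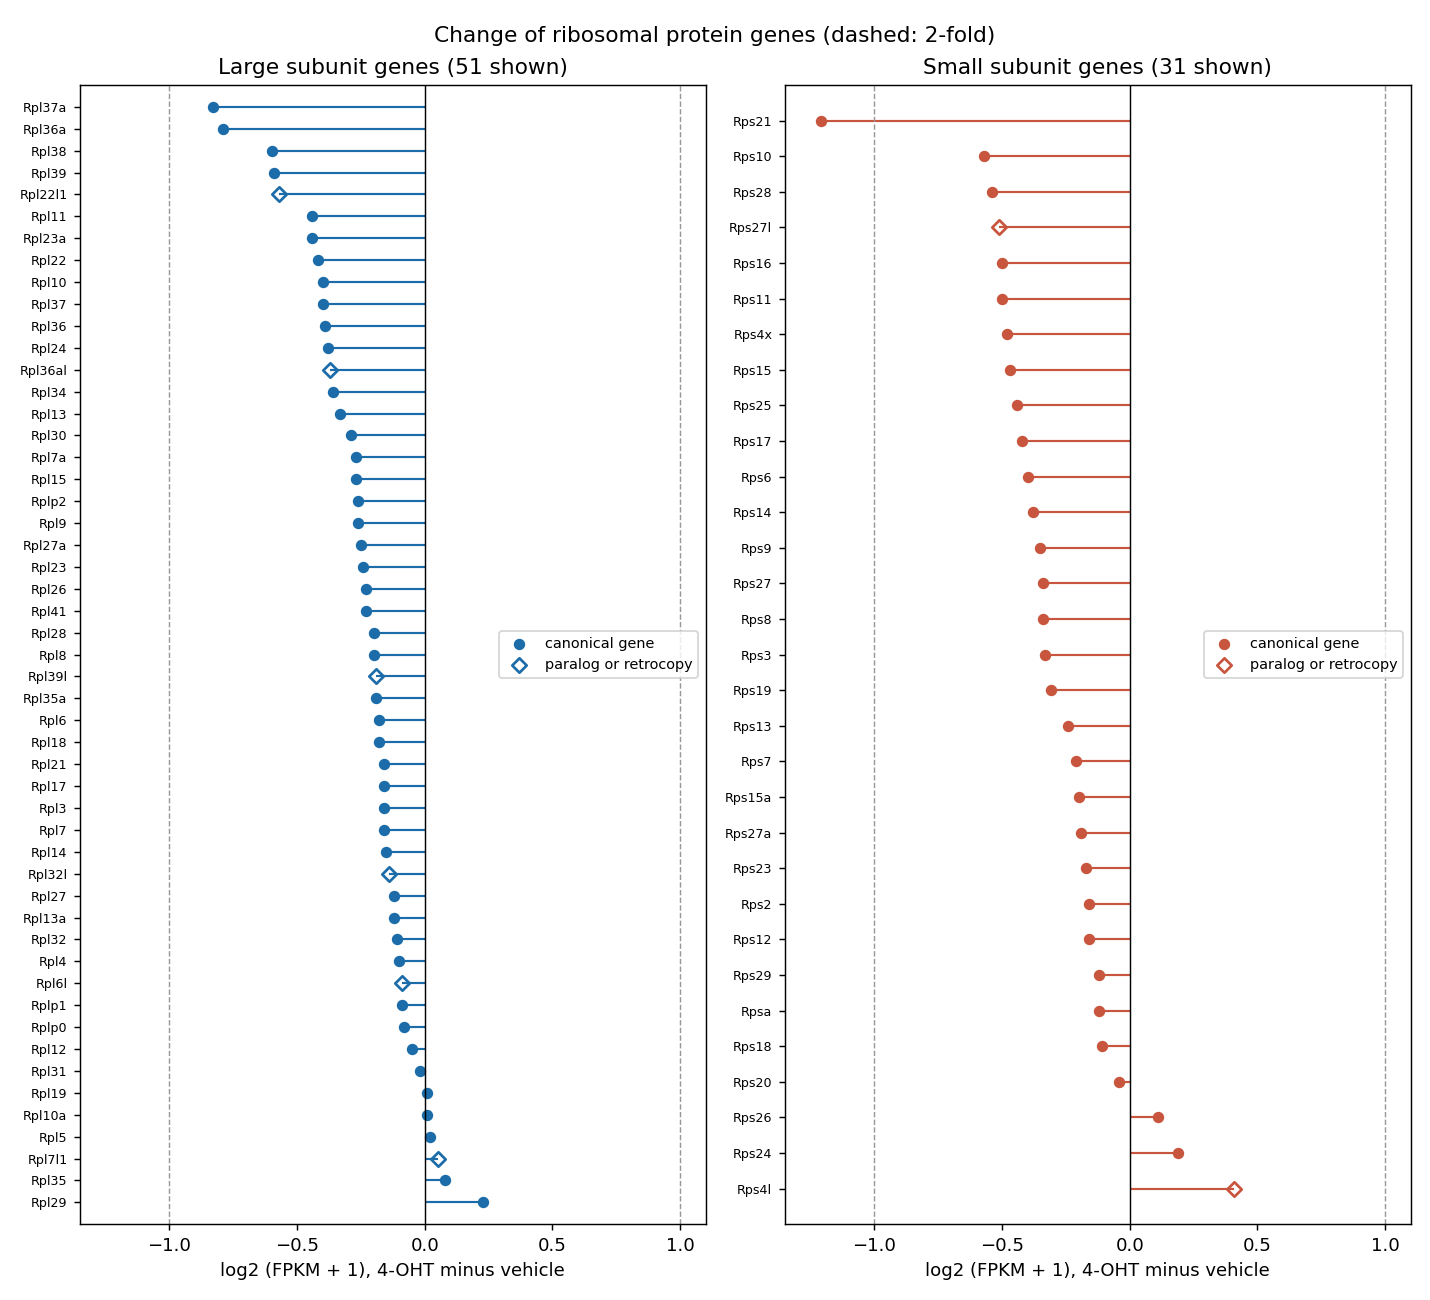
Change in log2(FPKM + 1), 4-OHT minus vehicle, of 51 large subunit genes (left) and 31 small subunit genes (right), with 1 library per group and dashed lines at 2-fold. Most genes lie between −0.6 and 0.1, and Rps21 at −1.21 is the 1 gene past 2-fold. The paralogs, as open diamonds, lie among the canonical genes except for Rps4l, which at 0.41 lies above all of them.

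In the large subunit, the genes of the stalk had changes close to 0, with a median of −0.09. The stalk, which recruits elongation factors and can activate the kinase GCN2, is made of Rplp0, Rplp1 and Rplp2 on a base of Rpl12. Rplp0 was at 590 and 557 FPKM (−0.08), and Rplp1 at 648 and 608 FPKM. Rplp1 has 1 annotated transcript, and its fragments were estimated from FPKM as about 8100 and 6118. The ratio of 4-OHT to vehicle was 0.938 per length and depth (95% interval for counting error 0.908 to 0.970). Of the short stretches of its mRNA, 60% also stand in an annotated transcript of another gene, as described below. Its transcript, at 499 bases, was also shorter than those used to recover depth. The interval covers neither limit, and their part in the ratio was not tested. Rplp2 was at 453 and 378 FPKM (−0.26) and Rpl12 at 348 and 336 FPKM (−0.05). All 4 stalk genes lay below 0 and within 1.5-fold, as did the 4 genes around the peptidyl transferase centre, Rpl3, Rpl4, Rpl8 and Rpl10, whose median was −0.18. Of all 51 large subunit genes tested, 44 lay below 0 and 4 were at least 1.5-fold lower.

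Around the exit tunnel, through which the new chain leaves, the 7 genes had a median of −0.16. Rpl39, a small protein lining the tunnel, was lowest at 262 and 174 FPKM (−0.59), while Rpl35, at the rim, was at 138 and 146 FPKM (0.08). Rpl26, at the rim and known to bind p53 mRNA in human cells, was at 570 and 485 FPKM (−0.23). Rpl5 and Rpl11 form, with the small ribosomal RNA of the large subunit, the particle that restrains the p53 ligase Mdm2. Rpl5 was at 44.4 and 44.9 FPKM (0.02) and Rpl11 at 67.0 and 49.0 FPKM (−0.44), so these partners differed in their values, without a test. Rpl23, which also binds Mdm2, was at 350 and 296 FPKM (−0.24).

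The lowest large subunit genes encode small proteins. Rpl37a was at 257 and 144 FPKM (−0.83; chromosome 1, 72711290 to 72713813, plus strand) and Rpl36a at 60.2 and 34.5 FPKM (−0.79). Rpl38, needed in mouse embryos for translation of Hox mRNAs, was at 338 and 222 FPKM (−0.60). With Rpl39 and Rps21 these were the 5 members at least 1.5-fold lower, and all have coding sequences of 153 to 318 bases. Other genes with short coding sequences changed less, such as Rpl41 (138 bases, −0.23) and Rps29 (168 bases, −0.12). Across 81 protein-coding members, change and log2 coding length had a Pearson correlation of 0.34 and a Spearman correlation of 0.33. Rpl29 was the highest canonical large subunit gene, at 152 and 178 FPKM (0.23). Rpl35, given above, turned below 0 when the libraries had the same sum.

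In the small subunit, all 4 genes of the decoding site and mRNA entry were below 0, with a median of −0.25. Of all 32 small subunit genes, 28 were below 0. Rps3, which lines the mRNA entry and also acts in DNA repair, was at 448 and 355 FPKM (−0.33). Rps2, its neighbour, was at 455 and 408 FPKM (−0.16). Rps15, near the decoding site, was at 487 and 352 FPKM (−0.47). Of the 6 genes of the platform and mRNA exit, 4 were below 0. Rps26, of the mRNA exit, was at 287 and 309 FPKM (0.11) and turned below 0 when the libraries had the same sum. Rps28 was at 308 and 211 FPKM (−0.54), and Rpsa, which is also a cell-surface laminin receptor, at 417 and 385 FPKM (−0.12). Rps14, of the platform, was at 402 and 308 FPKM (−0.38). On the values as deposited, members of the same region therefore lay on both sides of 0. With the same sum, the 2 platform and exit genes above 0 turned below it.

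Genes for proteins that mark stalled or signalling ribosomes were all below 0, as were 86.7% of all members tested. The 4 with ubiquitination sites used at stalls, among them Rps2 and Rps3 given above, had a median of −0.24. The 6 of both subunits with roles in signalling or selective translation had a median of −0.41, against −0.23 for all members. Less the median of other genes of the same mRNA length, as described below, these 6 lay between −0.27 (Rps6) and −0.02 (Rps27a). The median of all members on that scale was −0.08. Rps10 and Rps20 are ubiquitinated when ribosomes collide. Rps10 was at 86.8 and 58.1 FPKM (−0.57) and Rps20 at 173 and 168 FPKM (−0.04). Rps6, the substrate of the kinase S6K, was at 39.4 and 29.7 FPKM (−0.40). Rps25, which viral and cellular internal ribosome entry sites need, was at 443 and 325 FPKM (−0.44). Rps27a, made as a fusion with ubiquitin, was at 127 and 111 FPKM (−0.19). Rps19, the gene most often mutated in Diamond-Blackfan anaemia in humans, was at 363 and 292 FPKM (−0.31). Of 17 genes of that disease 13 were below 0, with a median of −0.21, close to that of all members. Rps24, whose last exons are alternatively spliced, was the highest canonical small subunit gene at 0.19.

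Paralogs and retrocopies were low except for 4. Rpl36al, an expressed retrocopy of Rpl36a, was at 141 and 109 FPKM (−0.37), which was 235% and 317% of the listed level of Rpl36a. Rps27l, a p53 target in human cells, was at 232 and 163 FPKM (−0.51), or 58.6% and 51.8% of the level of Rps27. Rpl22l1, which Rpl22 is known to repress in the mouse, was at 56.3 and 37.5 FPKM (−0.57), and Rpl22, known for binding viral RNA and for its role in T cell development, at 341 and 256 FPKM (−0.42). Rpl22l1 was thus 16.5% and 14.7% of Rpl22, with both lower. Much of the sequence of some of these genes also stands in transcripts of other genes, as described below. By short stretches the share was 85.5% for Rpl36a, 63.3% for Rpl36al, 98.7% for Rps27 and 57.3% for Rpl22l1. It was 13.7% for Rps27l and 24.5% for Rpl22. The part of the division of fragments with several matches in these ratios was not tested. Rpl7l1 was at 65.0 and 67.3 FPKM (0.05). Rpl39l, best known from testis in the mouse, was at 1.73 and 1.39 FPKM, and Rpl32l at 1.05 and 0.861 FPKM, or about 9 and 6 fragments, for which 4-OHT over vehicle was 0.824 (95% interval for counting error 0.241 to 2.59). Rps4l, a transcribed processed pseudogene of the Rps4x family, had the highest change of all members, 0.41, at 8.89 and 12.1 FPKM, while Rps4x was at 415 and 298 FPKM (−0.48).

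Median changes were lowest for the shortest mRNAs, both among the members and among other protein-coding genes, few of which are that short. Of 81 protein-coding members tested, the median mRNA was 703 bases long, taken as the shortest annotated transcript that carries the longest coding sequence. The 6 members under 400 bases had a median change of −0.47, and the 41 other protein-coding genes of that length had −0.53. Between 500 and 599 bases the medians were −0.33 for 16 members and −0.22 for 106 other genes. Between 600 and 799 bases they were −0.20 for 19 members and −0.17 for 292 other genes, and between 800 and 999 bases −0.21 for 15 members and −0.12 for 388 others. Between 400 and 499 bases they were −0.31 for 8 members and −0.32 for 76 others, and between 1000 and 1499 bases −0.16 for 11 members and −0.01 for 1253 others. At 1500 bases or more they were −0.07 for 6 members and 0.05 for 9430 others. The medians of members and other genes were farthest apart at 1000 to 1499 bases, where 10 of 11 members and 51.4% of the other genes lay below 0. The class of a gene depends on the annotated transcript taken. In that class Rps16, Rpl27a, Rpl23 and Rpl12 have coding sequences of only 420 to 495 bases. Which transcripts the cells made was not tested.

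After the median of other protein-coding genes in the same of 7 length classes was taken off, the median of the members was −0.08, with 59 of 81 below and 22 above. It was −0.09 when the other genes were limited to those with a mean of at least 50 FPKM. On this scale the subunits were at −0.07 (large) and −0.10 (small). Rps21 remained the lowest, at −0.68, followed by Rpl37a at −0.61, Rps16 at −0.49 and Rpl36a at −0.47, whereas Rpl38 moved to −0.07 and Rps28 to −0.02. Rpl29 (0.44) and Rps29 (0.41) were the highest. Across the 81 members, change and log2 mRNA length had a Pearson correlation of 0.41 and a Spearman correlation of 0.39, with both libraries shared by all points. Over 11586 other protein-coding genes, most of them long, the same correlations were 0.03 and 0.06. The part of mRNA length in the result was not tested.

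**Figure D3:**
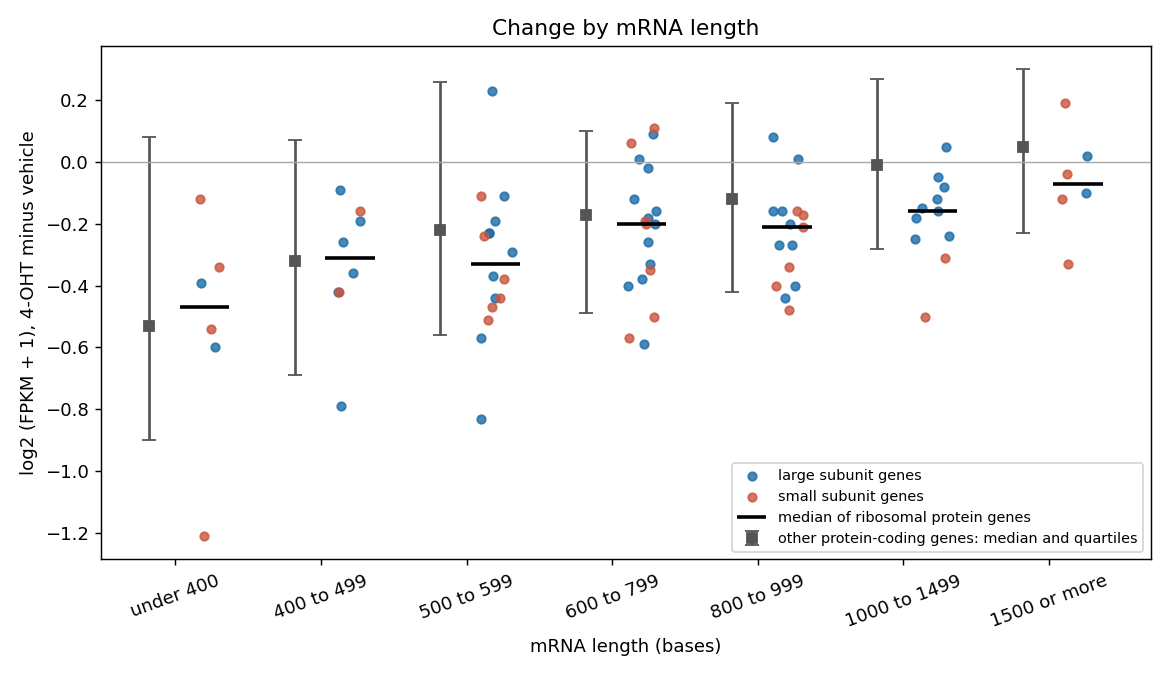
Change in log2(FPKM + 1), 4-OHT minus vehicle, by mRNA length class in bases: squares with bars are the median and quartiles of other protein-coding genes, points are ribosomal protein genes and black lines are their medians. Both sets of medians run from about −0.5 under 400 bases to near 0 at 1500 bases or more.

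Levels of these genes are uncertain because of their many copies in the genome. Of each member's mRNA, the share of 50-base stretches that also stand in an annotated transcript of another gene had a median of 55.5%, and 46 of the 84 members shared more than 50%. It reached 98.7% for Rps27 and 92.1% for Rpl10, and was 0 for Rpl39l. The 36 protein-coding members at or below 50% had a median of 328 FPKM with vehicle and a median change of −0.22. The 45 above 50% had a median of 202 FPKM and a change of −0.24. The change was thus close in both sets. Across the 81 members, log2 vehicle level and percent shared had a Pearson correlation of −0.08 and a Spearman correlation of −0.23. The sources used here do not say how fragments with several matches were divided.

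Rows marked as ribosomal protein pseudogenes did not share the shift. Of 118 such rows, 59 reached 1 FPKM, and 39 of these lay above 0, with a median of 0.17, against 53.2% of all genes tested above 0. The remaining 544 processed pseudogene rows tested had a median of 0.15. The highest with vehicle was Rpl3-ps1, and its parent Rpl3 was at 59.2 and 53.0 FPKM beside 34.3 and 26.2 FPKM for the pseudogene. Rps24 had 2 pseudogene rows, together at 28.7 and 35.6 FPKM, and Rps6 had 3, together at 20.2 and 23.5 FPKM, beside 39.4 and 29.7 FPKM for Rps6 itself. Adding these rows to their parents left 4.56% and 3.47% of summed FPKM in the group.

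Of the related lists, other TOP mRNAs had a median below 0, and assembly and polymerase I genes had medians above it. Of 17 other known TOP mRNAs, mostly elongation and initiation factors, 11 were below 0 and 6 above, with a median of −0.17. Below 0 lay 46.8% of all genes tested. The lowest were Nap1l1, a histone chaperone, at 43.6 and 29.4 FPKM (−0.55), and Eef1d, an elongation factor subunit, at 118 and 83.2 FPKM (−0.49). The highest was Pabpc1, the poly(A)-binding protein, at 298 and 440 FPKM (0.56). The 4 ribosomal protein genes outside the naming rule had a median of −0.06. Of the 17 TOP mRNAs, 1 (Rack1) is also counted among these 4, and 1 among the assembly factors described below. Rps3a1 was at 12.6 and 11.3 FPKM (−0.14). Fau, made as a fusion with a ubiquitin-like protein, was at 89.8 and 96.2 FPKM (0.10) and Rack1 at 469 and 477 FPKM (0.02). Scaling to the same sum gave medians of −0.34 for the TOP list and −0.22 for these 4, beside −0.11 for all genes.

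Of 33 ribosome assembly factors, 25 were above 0, against 53.2% of all genes tested. Their median was 0.16, beside 0.03 for all genes, and none passed 2-fold. Eif6, which keeps new large subunits from joining, was at 40.5 and 71.4 FPKM (0.80), Rpf2, which places Rpl5 and Rpl11, at 19.3 and 30 FPKM (0.61), and Nop10, of the pseudouridylation complex, at 26.8 and 15.6 FPKM (−0.75). Of 13 genes of RNA polymerase I, which transcribes ribosomal RNA, 9 were above 0, with a median of 0.18, and Tcof1, the treacle protein, was at 10.6 and 21.5 FPKM (0.96). With both libraries scaled to the same sum these medians were 0.01 and 0.02, with 19 of 33 and 7 of 13 above 0. All genes then had a median of −0.11, with 61.6% below 0. On that scaling the ribosomal proteins had −0.40.

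Of 16 genes of the mTORC1 and LARP1 pathway, 12 were above 0, against 53.2% of all genes tested, with a median of 0.20. With both libraries scaled to the same sum 10 were above 0, with a median of 0.05 beside −0.11 for all genes. Larp1, the TOP mRNA-binding protein, was highest, at 27.2 and 48.9 FPKM (0.82). The 4 genes below 0 reached −0.58, with Pdcd4 and Eef2k both at −0.43 and Eif4ebp2 at −0.32. Mtor was at 9.22 and 11.7 FPKM (0.31), Rps6kb1, the S6 kinase, at 14.8 and 16.1 FPKM (0.11), and Eif4ebp1, a repressor of cap binding, at 53.2 and 70.6 FPKM (0.40). All 7 tested genes of the checkpoint by which free Rpl5 and Rpl11 restrain Mdm2 were above 0, with a median of 0.21. With the same sum 4 were above 0 and 3 below, with a median of 0.05, while 61.6% of all genes were below 0. Of the 7, 2 are also counted among the assembly factors. Mdm2 was at 107 and 139 FPKM (0.37), Mdm4 at 22.8 and 37.8 FPKM (0.71), and the p53 target Cdkn1a at 77.0 and 83.3 FPKM (0.11). Of 11 genes that answer stalled ribosomes, Ascc3, a helicase that splits collided ribosomes, was the 1 past 2-fold, at 22.1 and 87.9 FPKM (1.94), and the median was −0.03, or −0.19 with the same sum.

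Mitochondrial ribosomal proteins, the closest family by function, had a median of 0.09 over 80 genes, and 33 lay below 0, against 46.8% of all genes. The median turned to −0.06 when both libraries had the same sum, beside −0.11 for all genes. Their mRNAs were longer, with a median of 1284 bases over 78 protein-coding genes. Among genes under 1000 bases the medians were −0.10 for 25 mitochondrial and −0.27 for 64 cytosolic ribosomal protein genes, beside −0.16 for 903 others. The family held Mrps21 (73.2 and 37.3 FPKM, −0.96) at the low end and Mrpl30 (47.4 and 82.1 FPKM, 0.78) at the high end. With 1 library per group, the difference between the families was not tested.

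**Figure D4:**
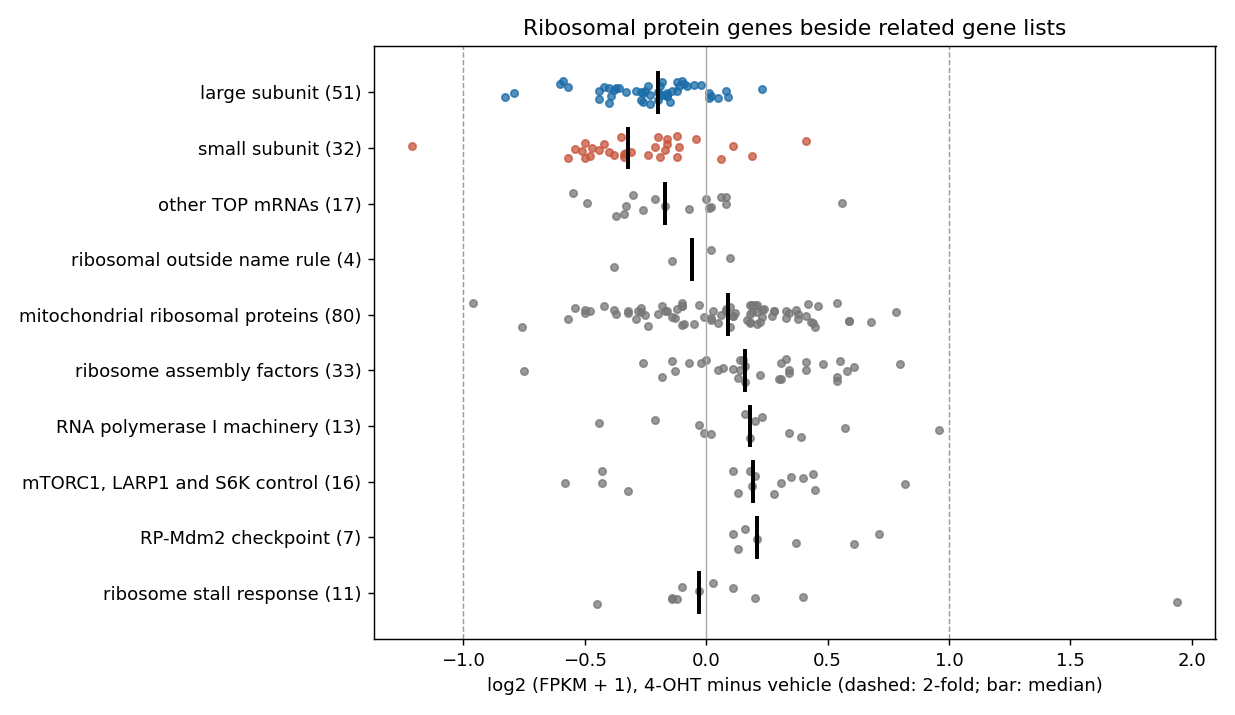
Change in log2(FPKM + 1), 4-OHT minus vehicle, of each gene in the 2 ribosomal subunits and in related lists, 1 point per gene, with the number of genes in brackets, the median as a black bar and dashed lines at 2-fold. The subunit medians of −0.20 and −0.32 lie to the left of 0, and those of assembly factors and polymerase I genes, at 0.16 and 0.18, to the right.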

How the data were processed

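Libraries were 1 per group, grouped by the treatment in their labels. The authors deposited FPKM, 1 value for each gene in each library. The submitters' processing notes name STAR, Cufflinks and GRCm38, the mouse build, without roles. A log2 column in the authors' table equals the difference of log2(FPKM + 1), 4-OHT minus vehicle, to within 1.6e-14. The authors also deposited a p-value and a q-value for each gene. The sources used here give neither how these treat the lack of replicates nor how the libraries were scaled. All 17145 identifiers matched GENCODE M21. There were 20 symbols turned into dates that were restored, and of 17 repeated symbol rows the one with the larger sum was kept.

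Changes are log2(FPKM + 1), which understates the change of low genes, for genes of at least 1 FPKM in the higher library. Depth was recovered from genes with 1 transcript longer than 600 bases: FPKM times the transcript length less 174 or 170 bases fell within 0.1 of whole fragments in 97.9% and 98.3% of low values, against 20% by chance. Intervals are exact, at 95%, and cover counting error only, not the division of fragments with several matches. Named genes were drawn from the paralogs, the stalk genes, the 5 highest and 5 lowest changes and the highest and lowest levels per subunit. They were also drawn from members with known roles outside the ribosome and the 3 largest changes per list. Not every gene of these sets is named, and others were named after their values were seen. Members and lists were chosen with earlier results of these data known. Alternatives changed the pseudocount, the minimum, the scaling, the members and pseudogene rows. The summaries were tested on simulated data. Python 3.11.15, pandas, scipy and matplotlib were used. A few genes are included in the counts and medians but not reported here by name or in the plots of single members.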

Additional observations from a re-analysis of the deposited data

How the results depend on the processing

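The direction of the members' median and of both subunit medians was the same under every alternative run (pseudocounts of 0.1 and 5, no minimum or a minimum of 5 FPKM, centring, equal sums, canonical genes, longest transcripts of at least 500 bases, pseudogene rows added, and, chosen after seeing the data, at most 50% shared sequence, without Rps21, and less the median of genes of the same length). The members' median ranged from −0.40 to −0.08, the large subunit from −0.37 to −0.07 and the small subunit from −0.49 to −0.10. The lower ends came with equal sums, where the median of all genes was −0.11, and the upper ends with the length correction. With equal sums, 16 members were at least 1.5-fold lower and 3 above 0, and the list medians were −0.22 (ribosomal genes outside the name rule), −0.34 (other TOP mRNAs), 0.05 (mTORC1 and LARP1), 0.01 (assembly), 0.02 (polymerase I), 0.05 (Mdm2 checkpoint), −0.19 (stall response) and −0.06 (mitochondrial ribosomal proteins, reversed from 0.09). Without genes whose longest transcript is under 500 bases, 0 members were 2-fold lower, since Rps21 was left out, and 3 were 1.5-fold lower. The large minus small difference of 0.12 was 0.06 with pseudogene rows added and 0.03 less genes of the same length; the cause was not tested. Of 42 named members, 6 changed sign with equal sums, among them Rpl35, Rpl5, Rpl7l1 and Rps26. No paired analysis was possible because each group has 1 library.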
